A study of Mus musculus with 6 samples.

Results

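The genes of the G1/S transition and of DNA replication were followed in cultured nephrogenic stroma of the fetal mouse kidney. They are 44 genes given by name: G1 cyclins and their kinases, E2F transcription factors, the licensing and helicase proteins of replication origins, and the enzymes that copy DNA, supply nucleotides and rebuild chromatin. All 44 were found by gene name among the 78409 genes of the deposited table, with no name repeated, and all 44 passed the filter on low counts, as 14834 genes did. Nephrogenic stroma, the connective tissue of the nephron-forming zone, was isolated by cell sorting on PDGFRa, a receptor of the stromal surface, and came from wild-type CD1 embryos at embryonic day 18 whose kidneys were pooled. The high adhesion group (3 libraries) was cultured for 18 h on silicone elastomer (PDMS) coated with bovine fibronectin at 50000 ng/mL, and the low adhesion group (3 libraries) on PDMS coated at 500 ng/mL, both in medium with fetal bovine serum. Each of 3 litters gave 1 library to each group, so the groups were compared within litters.

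Cells commit to a new division in G1, when D-type cyclins with CDK4 or CDK6 and then cyclin E with CDK2 phosphorylate the retinoblastoma protein and free E2F factors. E2F then raises transcription of most replication genes, whose messages peak around the start of S phase. In the fetal kidney the stroma divides together with the nephron progenitors it surrounds, and adhesion to fibronectin together with serum growth factors is the textbook requirement for passage through G1. RNA from a whole culture mixes cells of all phases, so fewer cells in S phase and less message per cell cannot be told apart.

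Library totals were 12596249 to 13508257 counts, so 1 count was worth 0.074 to 0.0794 CPM, the unit that divides each count by its library's total. The lowest count of any of the 44 genes was 21, for E2f2, and the other 43 averaged at least 5 CPM. CPM is not scaled for transcript length, so levels are compared between libraries and not between genes. The label of stroma was checked on 9 markers, all present in every library. In litters 1, 2 and 3 their summed levels were 5382, 6207 and 5572 CPM at high adhesion and 5472, 6273 and 5784 CPM at low adhesion. The sums were lower at high adhesion in each litter. The highest of the 9 averaged 3478 CPM and weighs most in these sums. Of these 9, 7 fell at high adhesion, among them Meis2, Col3a1, Pdgfra and Pdgfrb, and Vim rose (edgeR quasi-likelihood test, adjusted p under 0.05). Of all genes tested, 4.83% fell and 4.71% rose. The median log2 fold change of the 9 was -0.29, and the values ran from -0.56 to 0.12. Meis2, Col3a1, Pdgfra and Pdgfrb had -0.40, -0.34, -0.55 and -0.56 (edgeR adjusted p = 6.71e-07, 4.01e-06, 1.59e-05 and 2.37e-05). Markers of other cells had lower sums, which do not give shares of cells because levels are not compared between genes. For 6 nephron progenitor markers the sums in litters 1, 2 and 3 were 85.4, 59.3 and 78.7 CPM at high adhesion. At low adhesion they were 79.4, 55.3 and 71.7 CPM, lower in each litter. For 8 epithelial markers, with Wnt9b at 0 in every library, the sums were 28.3, 18.6 and 25.3 CPM at high and 25.1, 21.7 and 21.8 CPM at low adhesion. For 7 endothelial markers they were 71.3, 98.4 and 77.1 CPM at high and 70.1, 88.0 and 66.9 CPM at low adhesion, higher at high adhesion in each litter. The 6 erythroid markers summed to 166, 187 and 331 CPM at high and 317, 290 and 200 CPM at low adhesion. For 7 macrophage and leukocyte markers the sums were 38.4, 15.6 and 19.9 CPM at high and 42.9, 18.6 and 21.7 CPM at low adhesion. The latter sums were lower at high adhesion in each litter. Among these, Cited1 and Flt1 rose and Emcn fell in the same test. Their log2 fold changes were 0.29, 0.56 and -0.33 (edgeR adjusted p = 0.0183, 1.62e-06 and 0.00382). Cited1 and Emcn did not pass in DESeq2 (adjusted p = 0.433 and 0.163) or in edgeR when litter 3 was left out (0.188 and 0.0536). The part of other cell types in the results was not tested.

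For 39 of these 44 genes the difference between high and low adhesion did not pass the test. Of the 44, 5 fell: Lig1, Pola1, Hells, Tyms and Mcm6, by 1.12-fold to 1.29-fold, and none rose (two-sided edgeR quasi-likelihood test with litter as a block, p adjusted by Benjamini-Hochberg over 14834 genes, threshold 0.05). The share that fell was 11.4%, against 4.83% of all genes tested and 6.22% of genes of at least 5 CPM. For rises it was 0 of 44 against 4.71% of all genes. At an unadjusted p under 0.05, edgeR gave 7 lower members and 3 higher, Ccnd1, Ccnd2 and E2f2. Of all 14834 genes, 1588 were lower and 1662 higher at that level. DESeq2 called no member higher, whereas limma-voom called Ccnd2. The median log2 fold change of high over low adhesion was -0.04 over the 44 members and -0.0012 over all genes, and the values of the members ran from -0.37 to 0.48. Within litters 1, 2 and 3 the median log2 CPM ratio was -0.014, 0.018 and -0.076 over the members and 0.023, -0.018 and 0.0049 over all genes. In 3 of 3 litters 10 of the 44 were lower at high adhesion, where 20.2% of all genes were, and 6 were higher, where 21.1% of all genes were. Only Mcm6 and Hells had every high adhesion library below every low adhesion library (7.6% of all genes), and only Ccnd1 and E2f2 had every one above (7.82%).

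**Figure D1:**
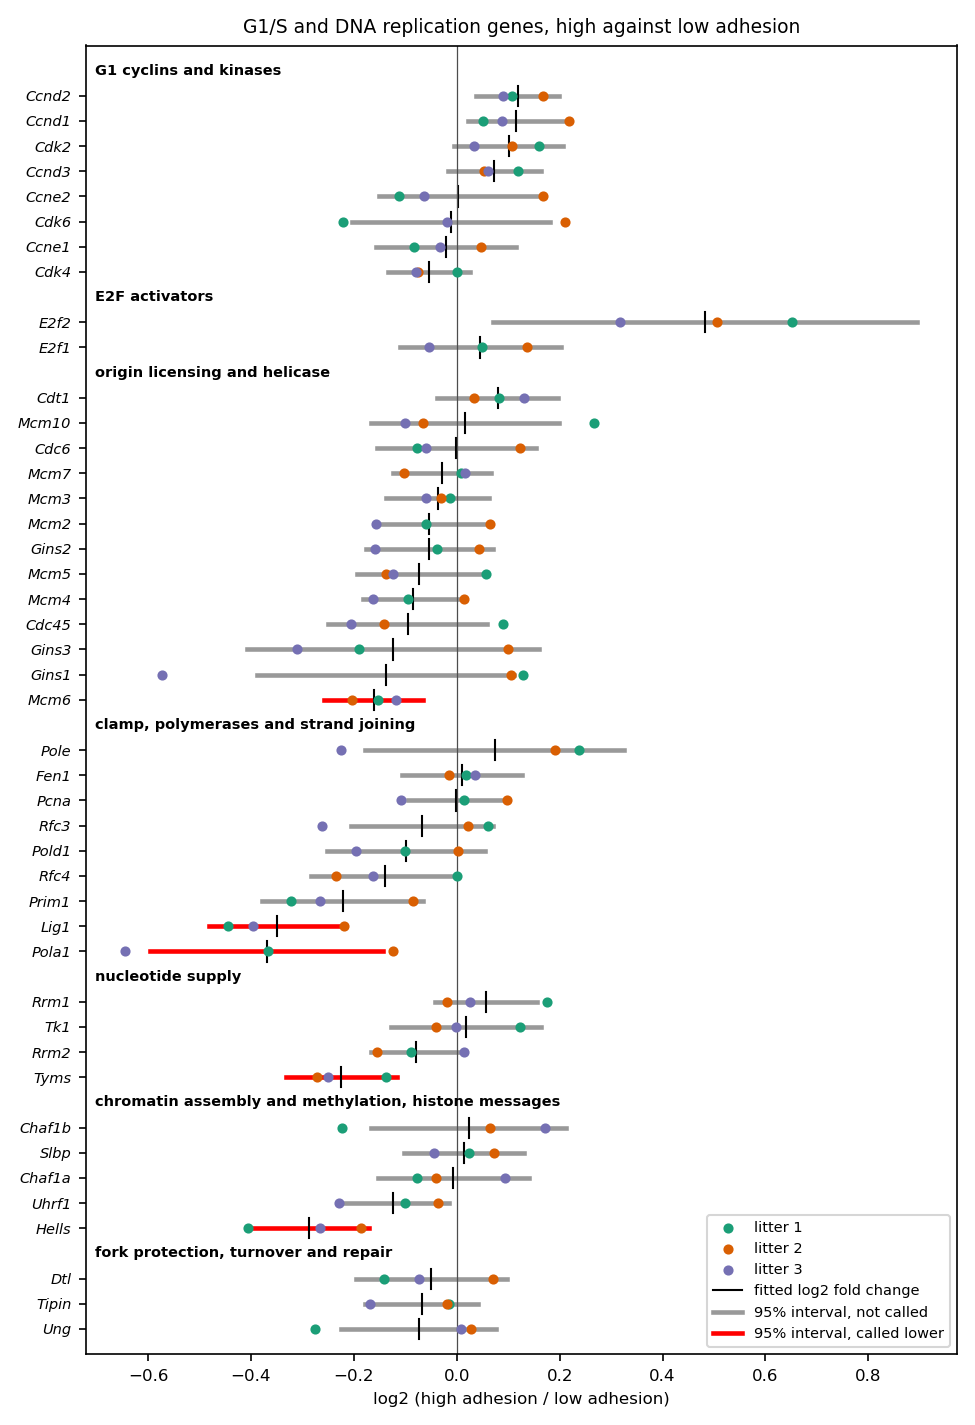
Log2 fold change of high over low adhesion for the 44 genes, grouped by role, with 95% intervals of the edgeR fit (horizontal lines, red for genes past the threshold), the fitted value (black tick) and the CPM ratio within each of the 3 litters (coloured points). The 5 genes past the threshold, Lig1, Pola1, Hells, Tyms and Mcm6, all lie left of 0, between -0.37 and -0.16, and the G1 cyclins and kinases lie between -0.05 and 0.12.

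Among the G1 cyclins and kinases 0 of 8 passed in either direction, and their summed level was 1529, 1676 and 1606 CPM at high adhesion and 1512, 1561 and 1587 CPM at low adhesion in litters 1, 2 and 3. The D-type cyclins are the subunits whose amount follows growth factors and adhesion. Ccnd1 (ENSMUSG00000070348) was at 167, 179 and 170 CPM in high adhesion libraries, against 162, 154 and 160 CPM in low adhesion libraries. The groups did not overlap, yet the log2 fold change, 0.12 ± 0.05 (± standard error here and below, 3 libraries each), missed the threshold (edgeR adjusted p = 0.123, 95% interval 0.02 to 0.21). Without litter 2 it was 0.055 (edgeR adjusted p = 0.56). Ccnd2 (ENSMUSG00000000184) was at 439, 526 and 488 CPM at high adhesion and at 408, 468 and 458 CPM at low adhesion. It was higher at high adhesion in 3 of 3 litters although the groups overlapped, and its log2 fold change was 0.12 ± 0.04 (edgeR adjusted p = 0.0558). Ccnd3 (ENSMUSG00000034165) had 132, 151 and 154 CPM at high and 122, 145 and 148 CPM at low adhesion, again higher within each litter (log2 fold change 0.07 ± 0.04, edgeR adjusted p = 0.366). With limma-voom (adjusted p under 0.05), with library totals in place of TMM, the trimmed-mean scaling of libraries, and among genes of at least 5 CPM, Ccnd2 passed; Ccnd1 and Ccnd3 did not pass under those settings.

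The kinases that bind these cyclins did not pass. Cdk4, which pairs with D-type cyclins, was at 410, 385 and 418 CPM at high and 410, 405 and 442 CPM at low adhesion (log2 fold change -0.05 ± 0.04, edgeR adjusted p = 0.475). Cdk6, its close relative, was lower at high adhesion in litter 1, with 229 against 267 CPM, and higher in litter 2, with 270 against 233 CPM, and its interval ran from -0.20 to 0.18 (log2 fold change -0.01 ± 0.08, edgeR adjusted p = 0.958). Cdk2, the partner of cyclin E, was at 102, 94.1 and 61.3 CPM at high adhesion and at 91.3, 87.3 and 59.8 CPM at low adhesion. Both libraries of litter 3 stood below the other 4, and within litters Cdk2 was higher at high adhesion in 3 of 3 (log2 fold change 0.10 ± 0.05, edgeR adjusted p = 0.257). The cyclin E genes, classical E2F targets that drive entry into S phase, differed little: Ccne1 averaged 33.9 ± 6.76 CPM at high and 34.2 ± 5.26 CPM at low adhesion, and Ccne2 27.1 ± 5.67 and 26.9 ± 4.00 CPM (SD, n = 3 each). Their log2 fold changes were -0.02 ± 0.07 and 0.0024 ± 0.07, with 95% intervals of -0.16 to 0.12 and -0.15 to 0.16 (edgeR adjusted p = 0.908 and 0.989).

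**Figure D2:**
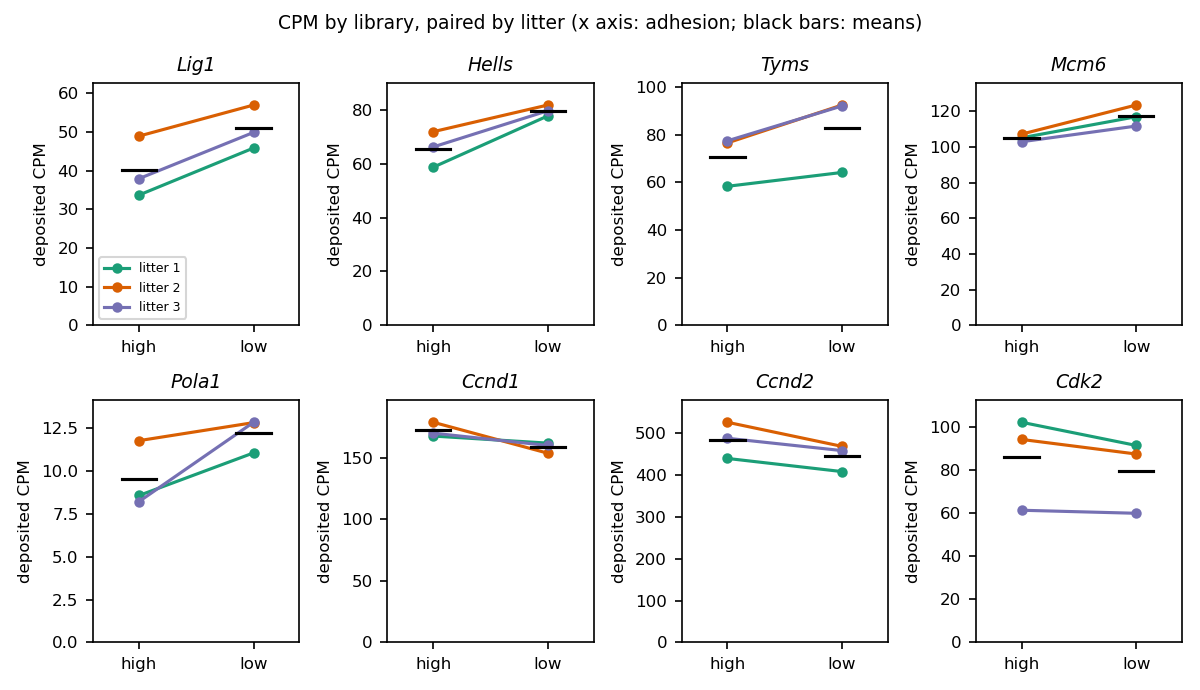
Deposited CPM of selected genes in the 6 libraries, high adhesion left and low adhesion right in each panel, with a line joining the libraries of one litter and a black bar at the group mean. Hells and Mcm6 have all 3 high adhesion libraries below all 3 low adhesion libraries, and Ccnd1 has them above.

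Neither activator E2F passed. E2f1, the archetype of the family and a target of its own activity, was at 21.9, 26.2 and 20.0 CPM at high adhesion and 21.2, 23.8 and 20.7 CPM at low adhesion (log2 fold change 0.05 ± 0.08, edgeR adjusted p = 0.807). E2f2, described because its fold was the largest of the 44, was at 2.50, 3.02 and 2.44 CPM in high adhesion libraries and 1.60, 2.12 and 1.96 CPM in low adhesion libraries. The groups did not overlap, but its counts of 21 to 38 per library left a wide interval of 0.07 to 0.90 around a log2 fold change of 0.48 (edgeR adjusted p = 0.152).

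Of the 13 origin licensing and helicase genes 1 fell, Mcm6, and 12 did not pass. Their median log2 fold change was -0.05, with 11 of 13 values below 0, as were 7477 of all 14834 genes. The medians within litters 1, 2 and 3 were -0.013, 0.013 and -0.12, against 0.023, -0.018 and 0.0049 over all genes. Only 2 of the 13 were lower in 3 of 3 litters, where 20.2% of all genes were. The summed level of the 13 was 767, 847 and 799 CPM at high adhesion, against 784, 871 and 856 CPM at low adhesion. Mcm6 (ENSMUSG00000026355), a subunit of the MCM helicase ring that is loaded at origins, was at 105, 107 and 103 CPM in high adhesion libraries and 117, 124 and 112 CPM in low adhesion libraries. Every high adhesion value was below every low adhesion value, and the log2 fold change was -0.16 ± 0.05 (edgeR adjusted p = 0.0267). The other 5 subunits of the same ring did not pass. Mcm2 was at 91.0, 107 and 95.4 CPM at high and 94.8, 103 and 106 CPM at low adhesion (log2 fold change -0.05 ± 0.05, edgeR adjusted p = 0.627), and Mcm3, Mcm4, Mcm5 and Mcm7 had log2 fold changes of -0.04, -0.08, -0.07 and -0.03. Whether Mcm6 differed from the other subunits was not tested. The loading factors Cdt1 and Cdc6 bring the ring to the origin. Cdt1 was at 57.4, 51.5 and 59.2 CPM at high and 54.2, 50.4 and 54.1 CPM at low adhesion (log2 fold change 0.08 ± 0.06, edgeR adjusted p = 0.475), and Cdc6 averaged 24.5 ± 3.85 and 24.5 ± 2.07 CPM (SD, n = 3 each, log2 fold change -0.00070 ± 0.07, edgeR adjusted p = 0.997). Cdc45 and the GINS genes Gins1, Gins2 and Gins3, which turn the loaded ring into an active helicase, and Mcm10, which helps to start it, ranged from -0.14 to 0.02.

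Among 9 genes of the sliding clamp, polymerases and strand joining 2 fell, Lig1 and Pola1. Of the 9, 7 had values below 0, with a median log2 fold change of -0.10. The medians within litters 1, 2 and 3 were -0.00031, -0.015 and -0.23, against 0.023, -0.018 and 0.0049 over all genes. Of the 9, 4 were lower in 3 of 3 litters, where 20.2% of all genes were. Lig1 (ENSMUSG00000056394), the ligase that seals Okazaki fragments, was at 33.7, 48.9 and 37.9 CPM in high adhesion libraries and 45.8, 56.9 and 49.9 CPM in low adhesion libraries. It was lower at high adhesion in each litter while the groups overlapped through litter 2, and its log2 fold change was -0.35 ± 0.06, a 1.27-fold fall (edgeR adjusted p = 0.000468). Pola1 (ENSMUSG00000006678), the catalytic subunit of the polymerase that starts each new strand, was at 8.57, 11.8 and 8.22 CPM at high adhesion and 11.1, 12.8 and 12.8 CPM at low adhesion. Its difference was smallest in litter 2, and the log2 fold change was -0.37 ± 0.11, a 1.29-fold fall (edgeR adjusted p = 0.0312). It was -0.23 without litter 3, where Pola1 did not pass, and -0.52 without litter 2. Prim1, the primase subunit of the same complex, named here after its values were seen, was at 18.2, 25.1 and 22.6 CPM at high and 22.7, 26.6 and 27.2 CPM at low adhesion. It was lower at high adhesion in 3 of 3 litters and missed the threshold (log2 fold change -0.22 ± 0.08, edgeR adjusted p = 0.0675), but passed among genes of at least 5 CPM and without litter 2 (edgeR adjusted p = 0.0197). Pcna, the sliding clamp and a common marker of cycling cells, was at 186, 213 and 201 CPM at high and 184, 199 and 217 CPM at low adhesion. Its log2 fold change was -0.0022 ± 0.05 with a 95% interval of -0.10 to 0.09 (edgeR adjusted p = 0.984). Pold1, Pole, Fen1 and the clamp loader genes Rfc3 and Rfc4 had log2 fold changes of -0.14 to 0.07.

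Of the 4 nucleotide supply genes 1 fell. Tyms (ENSMUSG00000025747), thymidylate synthase, was at 58.3, 76.5 and 77.4 CPM in high adhesion libraries and 64.1, 92.4 and 92.0 CPM in low adhesion libraries. It was lower within each litter with overlapping groups (log2 fold change -0.22 ± 0.05, edgeR adjusted p = 0.00534). Rrm1 and Rrm2, the subunits of ribonucleotide reductase, and Tk1, thymidine kinase, had log2 fold changes of 0.06, -0.08 and 0.02 and did not pass. Tyms, Rrm2 and Pcna held fractional counts in 6 of 6 libraries, which reads shared with other copies or overlapping genes can give, so their values are uncertain.

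Of 5 genes for chromatin assembly, DNA methylation and histone messages 1 fell, Hells. Hells (ENSMUSG00000025001), a chromatin remodeller needed for DNA methylation, was at 58.8, 72.0 and 66.3 CPM in high adhesion libraries and 77.9, 81.9 and 79.8 CPM in low adhesion libraries. Every high adhesion value was below every low adhesion value (log2 fold change -0.29 ± 0.06, edgeR adjusted p = 0.00105). Uhrf1, which brings the maintenance methyltransferase to replicated DNA, was at 70.5, 102 and 78.4 CPM at high and 75.6, 104 and 91.9 CPM at low adhesion and missed the threshold (edgeR adjusted p = 0.156). The chromatin assembly factor genes Chaf1a and Chaf1b and the histone message binder Slbp had log2 fold changes of -0.01 to 0.02. None of the 3 genes for fork protection, protein turnover at the clamp and uracil repair passed: Tipin, Dtl and Ung had -0.07, -0.05 and -0.07.

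The 5 calls rested on the pairing by litter: without the replicate block 0 members passed (3 lower and 1 higher at an unadjusted p under 0.05), and the edgeR adjusted p of the 5 were 0.309 to 0.771, with 36 genes called in all. Lig1 and Hells also passed in DESeq2 and with any 1 litter left out, whereas Mcm6 (DESeq2 adjusted p = 0.311), Pola1 (0.510) and Tyms (0.134) did not pass in DESeq2, and in edgeR Mcm6 was lost without litter 1, 2 or 3 (adjusted p = 0.134, 0.0535 and 0.104), Pola1 without litter 1 or 3 (0.0957 and 0.404) and Tyms without litter 3 (0.0776). Without litter 2, edgeR also called Mcm4, Prim1 and Uhrf1 lower.

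The starts of the 5 genes that fell are shown because E2F recognises a short motif near the start of many replication genes. The windows run from 150 bases before the RefSeq transcript start to 50 after it (GRCm38.p6), 5′ to 3′ on the gene's strand, with capitals marking the words TTTCCCGC, TTTCGCGC, TTTGCCGC and TTTGGCGC read on either strand. They lie at chr19:38930840-38931039 (plus) for Hells, chr7:13278676-13278875 (plus) for Lig1, chr1:128359656-128359855 (minus) for Mcm6, chrX:93632106-93632305 (minus) for Pola1 and chr5:30073576-30073775 (minus) for Tyms.
Hells: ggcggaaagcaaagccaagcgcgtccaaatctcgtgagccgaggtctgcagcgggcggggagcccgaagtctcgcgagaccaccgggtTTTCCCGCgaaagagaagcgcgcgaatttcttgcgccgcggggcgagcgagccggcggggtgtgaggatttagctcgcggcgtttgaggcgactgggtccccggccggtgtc
Lig1: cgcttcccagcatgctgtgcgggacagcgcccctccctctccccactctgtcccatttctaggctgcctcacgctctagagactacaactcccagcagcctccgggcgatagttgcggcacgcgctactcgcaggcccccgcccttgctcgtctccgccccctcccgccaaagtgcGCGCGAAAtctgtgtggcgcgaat
Mcm6: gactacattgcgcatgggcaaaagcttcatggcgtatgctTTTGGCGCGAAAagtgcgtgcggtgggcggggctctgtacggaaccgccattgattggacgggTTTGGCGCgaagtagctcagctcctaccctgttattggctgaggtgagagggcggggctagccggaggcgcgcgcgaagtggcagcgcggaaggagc
Pola1: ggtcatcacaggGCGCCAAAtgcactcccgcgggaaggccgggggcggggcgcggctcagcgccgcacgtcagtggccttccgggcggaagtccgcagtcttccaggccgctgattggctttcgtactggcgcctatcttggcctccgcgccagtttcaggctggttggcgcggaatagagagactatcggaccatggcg
Tyms: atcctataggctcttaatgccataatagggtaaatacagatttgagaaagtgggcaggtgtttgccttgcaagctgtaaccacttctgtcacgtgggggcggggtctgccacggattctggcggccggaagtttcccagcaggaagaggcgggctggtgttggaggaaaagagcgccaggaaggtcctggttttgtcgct
The words begin at -62 from the start in Hells, at -138 in Pola1, and at -110, -106 (overlapping the one before) and -47 in Mcm6. In Lig1 a word begins at 26 after the start, in 1 of the 3 windows RefSeq gives for this gene, and the Tyms window holds none of the 4.

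Windows of 300 bases, from 250 before to 50 after the start, were given by RefSeq for 36 of the 44 genes, as 43 windows. At least 1 of the 4 words stood in 16 of the 43 (37.2%), against 4.1% of the 12559 windows of tested genes and 2.3% of all 32851 windows. The pentamer CCAAT, read on both strands without regard to overlap with the other words, was in 55.8% of the windows of these genes and 37.4% of all windows. In 21 windows of genes of G2/M and mitosis the shares were 4.8% for the E2F words and 76.2% for CCAAT. Genes that fell at high adhesion had a word in 4 of 7 windows and the others in 12 of 36. A word match describes letters in a window and is not a bound site.

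Many of these genes differed between litters. In the same model 25 of 44 (56.8%) differed between the 3 litters, against 17.9% of all genes tested and 21% of genes of at least 5 CPM (edgeR quasi-likelihood F-test on 2 degrees of freedom, adjusted p under 0.05). The mean over both libraries was lowest in litter 1 for 36 of 44 members (81.8%), against 32.7% of all genes, and highest in litter 2 for 31, against 34.2% of all genes. The median ratio of the highest to the lowest litter mean was 1.24 over the 44 and 1.16 over all genes, and the median fold between high and low adhesion in either direction was 1.05 over the 44 and 1.07 over all genes. For 39 of the 44 the ratio between litters was the greater, as it was for 75.5% of all genes, and it takes the extremes of 3 means and the adhesion fold compares 2. The summed level of the 44 genes was 3459, 3933 and 3733 CPM at high adhesion and 3512, 3895 and 3868 CPM at low adhesion in litters 1, 2 and 3, so the lowest library of each group was that of litter 1.

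**Figure D3:**
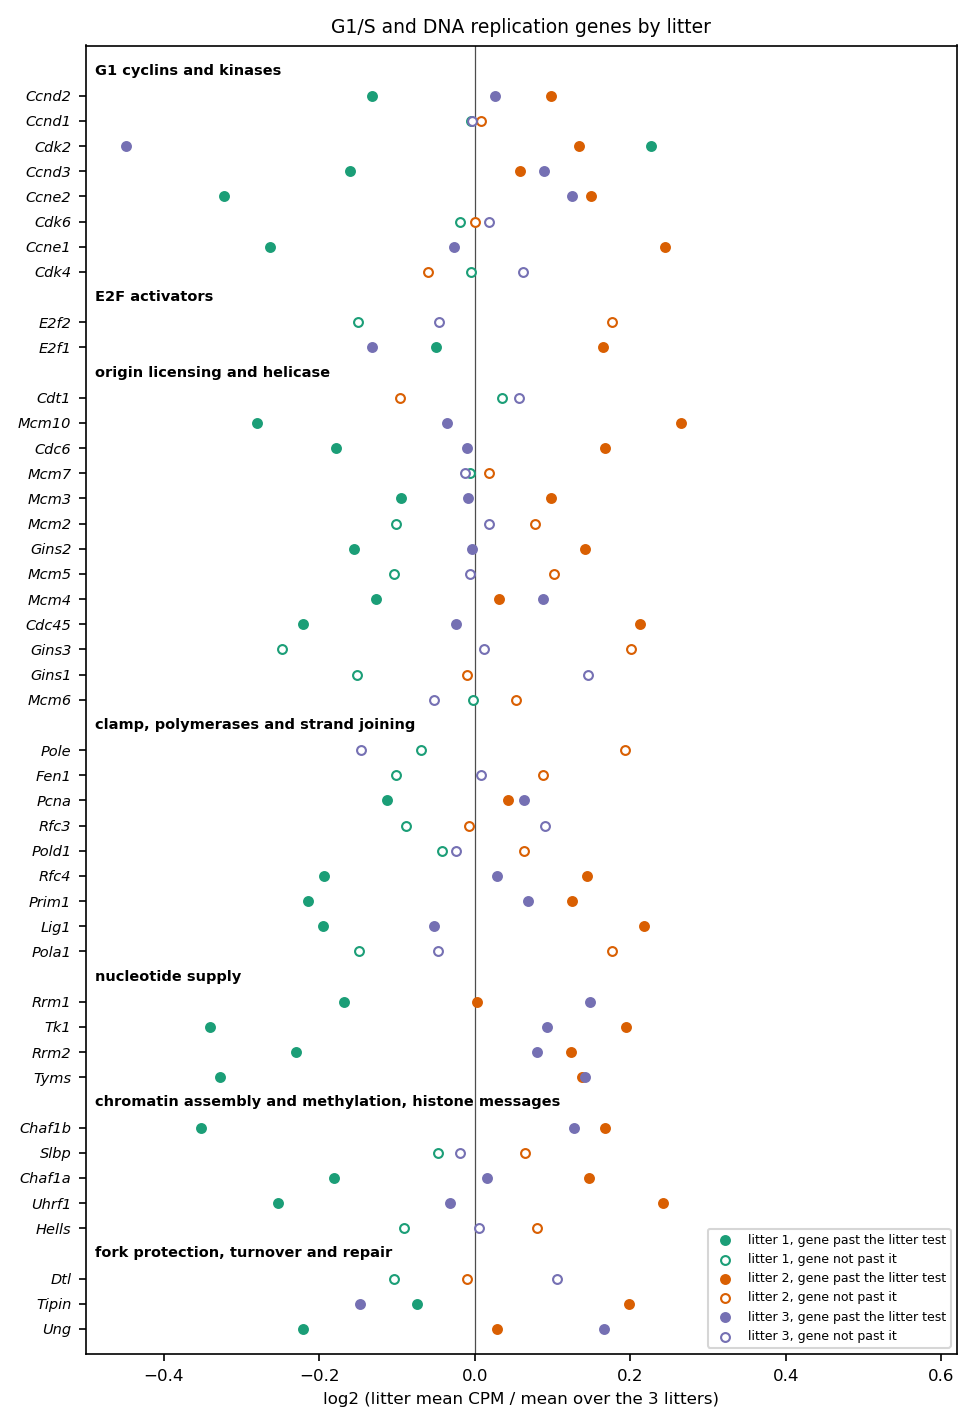
Litter means of the 44 genes as log2 ratio to the mean over the 3 litters, with filled points for genes past the litter test and open points for the rest. Litter 1 is the leftmost point in 36 of 44 genes, and Cdk2, with litter 3 at the far left, is an exception.

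All 4 nucleotide supply genes differed between litters, as did 5 of 8 G1 cyclins and kinases, 6 of 13 licensing and helicase genes, 4 of 9 clamp and polymerase genes, 3 of 5 chromatin genes, 2 of 3 fork and repair genes and 1 of the 2 E2F genes. Tyms averaged 61.2, 84.5 and 84.7 CPM in litters 1, 2 and 3, a ratio of 1.38 between the extremes (edgeR adjusted p = 2.70e-06). Rrm2 was at 204, 255 and 262 CPM at high adhesion and 217, 283 and 260 CPM at low adhesion, and both libraries of litter 1 stood below the other 4 (edgeR adjusted p = 1.15e-05). Tk1, Mcm10 and Chaf1b had litter ratios of 1.45, 1.46 and 1.43, each lowest in litter 1. Uhrf1 averaged 73.1, 103 and 85.2 CPM in litters 1, 2 and 3 (edgeR adjusted p = 5.28e-06), and Ccne1 28.4, 40.3 and 33.4 CPM (edgeR adjusted p = 0.000103). Cyclin E and the enzymes of deoxynucleotide synthesis are messages of late G1 and S phase. Whether the litters differed in the share of cells in any phase was not tested. Cdk2 went another way, with 96.7, 90.7 and 60.6 CPM and the largest ratio of the 44, 1.60 (edgeR adjusted p = 1.36e-08). Ccnd1, Mcm7 and Cdk6 had the ratios nearest to 1, at 1.01, 1.02 and 1.03. Of the 5 genes that fell at high adhesion, Lig1 and Tyms also differed between litters, and Hells, Mcm6 and Pola1 did not pass that test (edgeR adjusted p = 0.135, 0.372 and 0.179).

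Markers of other cell types differed between litters too. All 7 markers of macrophages and leukocytes were highest in litter 1, where they summed to 38.4 CPM at high and 42.9 CPM at low adhesion, against 15.6 to 19.9 CPM at high and 18.6 to 21.7 CPM at low adhesion in litters 2 and 3 (6 of 7 past the litter test in edgeR). All 6 nephron progenitor markers were lowest in litter 2, with sums of 59.3 CPM at high and 55.3 CPM at low adhesion, against 78.7 to 85.4 CPM at high and 71.7 to 79.4 CPM at low adhesion in litters 1 and 3 (4 of 6 past the test). Of the 9 stroma markers 6 were highest in litter 2 and 6 passed the test. Of all 14834 genes, 5639 were highest in litter 1, 5933 lowest in litter 2 and 5072 highest in litter 2. The litter test was passed by 17.9% of all genes. The part of cell types in the litter differences was not tested. Without litter 1 only 7 members differed between the other two, without litter 2 there were 15, and DESeq2 called 11 in all 3 litters. An E2F word was in 5 of 24 windows (20.8%) of the genes that differed between litters and in 11 of 19 (57.9%) of the genes that did not pass.

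The rest of the pathway was counted from related lists. Of 18 further replication initiation genes, which include the origin recognition complex, 0 passed in either direction (edgeR, 1 lower and 2 higher at an unadjusted p under 0.05). Of 24 further replisome, nucleotide and histone chaperone genes 4 fell and 0 rose, against 4.83% and 4.71% of all genes. At an unadjusted p under 0.05 edgeR gave 9 lower and 0 higher of the 24. Their median log2 fold change was -0.06, with 18 of 24 values below 0, as were 7477 of all 14834 genes. Nasp, a histone chaperone, was at 144, 154 and 144 CPM in high adhesion libraries and 168, 187 and 155 CPM in low adhesion libraries (log2 fold change -0.21 ± 0.05, edgeR adjusted p = 0.00305). Timeless, the partner of Tipin at the fork, was at 14.0, 16.7 and 16.5 CPM at high and 19.8, 20.4 and 18.9 CPM at low adhesion (log2 fold change -0.33, edgeR adjusted p = 0.0129). Clspn, an adaptor of the checkpoint kinase at stalled forks, and Dut, which removes dUTP, had log2 fold changes of -0.30 and -0.13 (edgeR adjusted p = 0.0266 and 0.0494). Of the 24, 4 had every high adhesion library below every low adhesion library, against 7.6% of all genes. Nasp, Timeless and Clspn were among them. None of the 4 genes that fell passed in DESeq2 (adjusted p = 0.0545 for Nasp, 0.377 for Timeless, 0.546 for Clspn and 0.365 for Dut). In edgeR Timeless was lost without litter 1 (adjusted p = 0.184), Clspn with any 1 litter left out (0.0625 to 0.152) and Dut without litter 1 or 3 (0.268 and 0.452). Dut, which lay just inside the threshold, was also lost with RLE size factors (adjusted p = 0.0512), library totals (0.0501) and no filter on low counts (0.0543) in edgeR, and in limma-voom (0.0535).

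Upstream of these genes, 2 of 17 regulators of G1/S transcription rose and 0 fell, against 4.71% and 4.83% of all genes. At an unadjusted p under 0.05 edgeR gave 4 higher and 2 lower of the 17. Myc, a growth factor induced activator of cyclin D and E2F genes, was at 371, 290 and 348 CPM in high adhesion libraries and 325, 255 and 286 CPM in low adhesion libraries. It was higher within each litter with overlapping groups (log2 fold change 0.22 ± 0.04, edgeR adjusted p = 0.000589). E2f8, an atypical E2F that represses replication genes, was at 16.5, 20.4 and 16.5 CPM at high and 13.4, 15.6 and 14.6 CPM at low adhesion, with no overlap (log2 fold change 0.29 ± 0.09, edgeR adjusted p = 0.0351). Of the 17 regulators, 4 had every high adhesion library above every low adhesion library, against 7.82% of all genes. E2f8 missed the threshold in DESeq2 (adjusted p = 0.582) and with any 1 litter left out (edgeR adjusted p = 0.051 to 0.227), and Myc passed in DESeq2 but not in edgeR without litter 3 (0.0514). Of 7 CDK inhibitor genes 6 were tested and 0 passed (1 lower and 1 higher at an unadjusted p under 0.05 in edgeR), with Cdkn2a below the filter. Cdkn1a, Cdkn1b and Cdkn1c, which encode p21, p27 and p57, had log2 fold changes of 0.10, 0.15 and -0.0051 (edgeR adjusted p = 0.14, 0.28 and 0.968). Cdkn1c averaged lowest in litter 1, with 105 CPM at high and 107 CPM at low adhesion, against 136 to 150 and 138 to 147 CPM in litters 2 and 3.

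The later part of the cycle was compared through 25 genes of G2/M and mitosis. Of these 4 fell and 2 rose, against 4.83% and 4.71% of all genes. Cenpf, a kinetochore protein, fell to 20.2, 26.8 and 27.7 CPM in high adhesion libraries, against 32.6, 35.0 and 32.8 CPM in low adhesion libraries (log2 fold change -0.43 ± 0.08, edgeR adjusted p = 0.000537). Ccnb2, a mitotic cyclin, Cenpe, a kinetochore motor, and Mki67, the proliferation antigen, had log2 fold changes of -0.33, -0.22 and -0.33 (edgeR adjusted p = 0.00605, 0.0183 and 0.0432). Anln, an actin binder of the cleavage furrow, rose by 0.19 on the log2 scale, and Plk1, a mitotic kinase named here after its values were seen, by 0.22 (edgeR adjusted p = 0.0121 and 0.0492). Top2a, the topoisomerase that separates sister chromatids, did not pass (log2 fold change -0.07, edgeR adjusted p = 0.381). Between litters 22 of the 25 passed and 24 were lowest in litter 1, against 17.9% and 32.7% of all genes. Cenpf was the only one of the 6 to pass in DESeq2, in which Mki67 had an adjusted p of 0.334. Without litter 1, Ccnb2, Cenpe, Mki67, Anln and Plk1 were lost in edgeR (adjusted p = 0.0768, 0.134, 0.441, 0.0983 and 0.0597), as were Anln without litter 2 (0.0772) and Cenpe and Plk1 without litter 3 (0.131 and 0.538). The log2 fold change of Mki67 was -0.15 without litter 1 and that of Plk1 0.14 without litter 3, and Plk1 was also lost with library totals (edgeR adjusted p = 0.0525) and with no filter on low counts (0.0759).

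**Figure D4:**
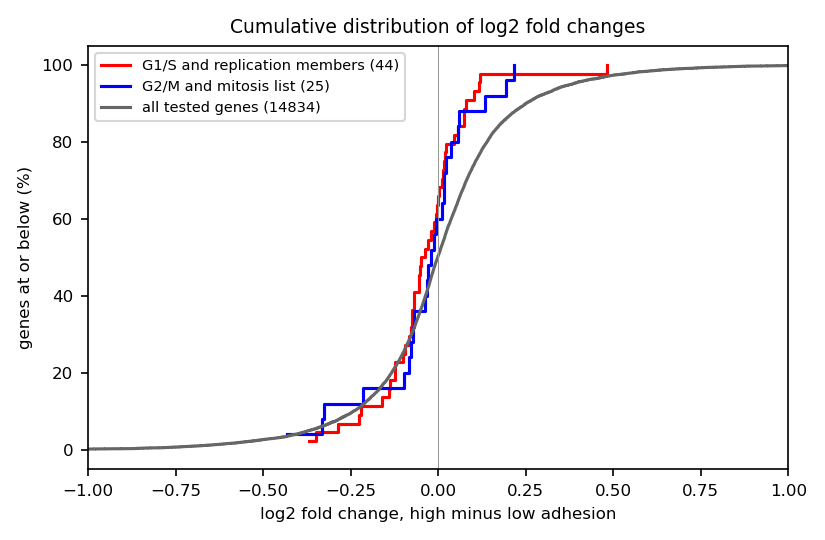
Cumulative distribution of the log2 fold change of high over low adhesion for the 44 replication genes (red), the 25 genes of G2/M and mitosis (blue) and all 14834 tested genes (grey), with the share of genes at or below each value in percent. The median lies at -0.04 for the replication genes, -0.02 for the G2/M list and -0.0012 for all genes.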

How the data were processed

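STAR 2.7.11, with build GRCm39, and featureCounts (Subread 2.1.1) are among the tools that the submitters' processing notes name for the authors' counts, beside fastp 0.24.0, SAMtools 1.22.1, FastQC 0.12.1 and MultiQC 1.32. Not given in the sources used here are the annotation, the strand setting and the treatment of multiply mapping reads, so genes that overlap or share reads are uncertain. The deposited table holds estimated counts, some fractional, and CPM that the authors computed from them. Of the 44 members 3 had fractional counts in 6 of 6 libraries and 19 in none.

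Counts were rounded and tested in edgeR 4.0.16 (R 4.3.3): filterByExpr, TMM scaling, a robust quasi-likelihood model with litter as a block, and Benjamini-Hochberg adjustment over 14834 genes at 0.05, two-sided. Printed CPM are the deposited values. Log2 fold changes are high over low adhesion. Litters were tested with an F-test in the same model. The numbers pair the samples, since the series' design text states litter matching. Same-litter libraries deviated together (correlations of 0.58, 0.58 and 0.36 across genes, against -0.49 to -0.08 between litters). Deviations were taken from each group's mean, so same-litter correlations above 0 push the others below 0, and these are no independent comparison. The biological coefficient of variation was 4.06% with litter and 10.7% without. Replicates are litters, each a pool of kidneys. DESeq2 1.42.0, limma-voom (limma 3.58.1), other scalings and filters, and leaving out each litter were alternatives. The adhesion test was tried on simulated counts with an adhesion effect and no litter effect. The litter test, the alternatives and the promoter search were not tried on them.

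The members and lists were chosen with earlier results of these data known. Full statistics are given for called members, D and E cyclins and their kinases, Pcna, Mcm2, Cdt1, Cdc6 and E2f1. Log2 fold changes and adjusted p are given for up to 4 called genes of each other list and for Cdkn1a, Cdkn1b, Cdkn1c, Myc, Mki67 and Top2a. Promoter windows are from RefSeq for GRCm38.p6, matched by symbol. Only these carry coordinates.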

Additional observations from a re-analysis of the deposited data

How the results depend on the processing

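The paired analysis with the replicate block gave 1416 genes and 5 members lower; without the replicate block there were 36 genes and 0 members. DESeq2 gave 406 genes, 2 members lower (Lig1 and Hells) and 11 members between litters. Leaving out 1 litter gave 908 to 1553 genes, 2 to 7 members lower and 7 to 25 members between litters. One member was higher, 1 against 0, with library totals only, with limma-voom and among genes of at least 5 CPM. The median of the members stayed between -0.08 and -0.01 in the alternatives run.

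Of 429 log2 fold changes recomputed for 43 named genes, 15 changed sign, and 0 of these belonged to called genes. With 1 litter left out, the values of genes that changed sign ran from -0.071 to 0.014 for Ccne1, -0.098 to 0.056 for Ccne2, -0.13 to 0.10 for Cdk6, -0.063 to 0.055 for Pcna, -0.12 to 0.0032 for Mcm2, -0.081 to 0.040 for Cdc6, -0.017 to 0.095 for E2f1 and -0.035 to 0.016 for Cdkn1c. Ccne2 was at -0.0020 in DESeq2 and -0.0029 with no filter on low counts, Pcna at 0.00071 with library totals only, and Cdc6 at 0.0013 with library totals only and 0.0026 without the replicate block. The cause was not tested. Depth bears most on E2f2, which had 21 to 38 counts per library.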
